A study of Mus musculus with 14 samples.

Results

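The chemokines, interleukins and their receptors on the array were taken as every probe whose only gene symbol in the platform annotation begins with Ccl, Cxcl, Ccr, Cxcr or Il followed by a digit. This gave 114 of the 21582 probes, in 107 of the 15094 genes named by a single symbol: 61 probes of ligands, 47 of receptors and 6 of neither class. The last 6 were Il1rn, Il18bp, Il4i1, Il1f5, Il1f6 and Il1f8, of which Il1f6 and Il1f8 encode ligands under older names that the sorting by symbol did not catch.

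Total RNA from a study of C57Bl6 mouse fetuses was hybridised to 14 two-colour arrays, each with a single sample in Cy5 and a common pool in Cy3. In the alcohol-fed group (7 arrays) the pregnant mice received ethanol (about 180 to 200 mg/dl) on gestational days 15 to 18, 4 days per the protocol where the titles say 5. In the pair-fed group (7 arrays) they were given maltose dextrin, also called maltose dextrose in the labels, on the same days. The descriptions on both groups' samples give caesarean delivery on gestational day 19, in words about the ethanol-exposed fetuses. The pool was made of RNA from 7 animals with free access to food and water, labelled as weight matched control, so it served as common reference and as untreated control. Neither the tissue nor the number of litters is stated, so a p-value here reflects the variation among these arrays, part of which may be technical. A ratio carries no expression level, so the cell types present could not be read from marker levels.

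Chemokines are small secreted proteins that guide the migration of leukocytes. Their CC and CXC families are named for the spacing of cysteines near the start of the mature protein, and their receptors couple to G proteins. Interleukins signal mostly through receptor chains that activate Jak kinases and Stat factors, whereas the interleukin 1 family acts through the adaptor Myd88 and the factor NF-kappaB. In the fetus these molecules are known for seeding haematopoietic organs and for the growth of lymphoid precursors.

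Promoters are shown for members that stood far from the pool or among the smallest p between the diets, with matches to motifs of transcription factors known downstream of these receptors. The sequences are RefSeq windows of GRCm38.p6, from 250 bases before to 50 bases after the gene's start, written 5′ to 3′ on the gene's strand. Capitals mark a match on either strand to a kappaB motif (GGG and TTTCC with any 2 bases between them), an AP-1 motif (TGANTCA) or a STAT motif (TTCNNNGAA). Only windows that hold a match are printed, though not all of these. Ccl28 (an AP-1 match), Il1r2 and a window of Il1f5 (a STAT match each) are left out. Many other members of this kind hold none, among them Ccl1, Ccl22, Cxcl15, Il12b, Il1b, Il2, Il20, Il21 and Il4i1. No window was available for Ccl5, Cxcl16 or Il12rb1, which stood among those farthest from the pool. Cxcl2 (chr5:90903649-90903948, + strand) and its neighbour Cxcl1 (chr5:90890995-90891294, + strand) each hold a pair of kappaB matches, Ccl20 (chr1:83116516-83116815, + strand) holds a kappaB match, and Cxcl14 (chr13:56296502-56296801, - strand) and Il7r (chr15:9529827-9530126, - strand) hold a STAT match.
Cxcl2: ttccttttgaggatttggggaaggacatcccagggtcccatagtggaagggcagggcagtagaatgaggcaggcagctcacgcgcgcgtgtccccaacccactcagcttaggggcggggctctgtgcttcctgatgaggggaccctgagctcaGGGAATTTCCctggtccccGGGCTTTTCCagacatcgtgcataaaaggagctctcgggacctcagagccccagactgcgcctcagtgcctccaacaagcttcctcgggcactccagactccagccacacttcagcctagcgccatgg
Cxcl1: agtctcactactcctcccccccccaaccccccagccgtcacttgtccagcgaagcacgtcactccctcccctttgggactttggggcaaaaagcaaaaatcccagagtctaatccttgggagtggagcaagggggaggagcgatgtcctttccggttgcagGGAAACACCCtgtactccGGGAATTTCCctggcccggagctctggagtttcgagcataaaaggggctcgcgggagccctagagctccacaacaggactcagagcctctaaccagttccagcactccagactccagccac
Ccl20: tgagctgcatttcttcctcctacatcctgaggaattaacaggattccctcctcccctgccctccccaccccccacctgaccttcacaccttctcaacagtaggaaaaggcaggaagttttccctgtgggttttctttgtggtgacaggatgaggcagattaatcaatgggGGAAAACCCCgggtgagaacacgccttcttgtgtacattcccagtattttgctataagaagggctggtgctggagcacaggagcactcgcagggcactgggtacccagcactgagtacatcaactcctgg
Cxcl14: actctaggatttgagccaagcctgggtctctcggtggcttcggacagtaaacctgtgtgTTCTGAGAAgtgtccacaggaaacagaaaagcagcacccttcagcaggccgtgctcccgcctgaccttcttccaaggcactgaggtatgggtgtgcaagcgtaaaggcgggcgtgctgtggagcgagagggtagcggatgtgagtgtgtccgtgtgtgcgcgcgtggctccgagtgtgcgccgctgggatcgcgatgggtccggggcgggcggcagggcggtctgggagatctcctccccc
Il7r: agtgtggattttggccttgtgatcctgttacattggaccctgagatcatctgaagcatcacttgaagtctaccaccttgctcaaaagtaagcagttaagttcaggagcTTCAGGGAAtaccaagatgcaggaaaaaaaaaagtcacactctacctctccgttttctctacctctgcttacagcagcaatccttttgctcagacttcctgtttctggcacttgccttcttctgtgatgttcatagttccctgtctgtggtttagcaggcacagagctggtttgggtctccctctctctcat

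Of the 107 genes, 80 had such a window, 97 windows in all. A kappaB match was found in 7 of 51 ligand windows (13.7%) and 2 of 38 receptor windows (5.26%), against 1.63% of all 32851 windows. AP-1 matches were found in 21.6% of ligand and 18.4% of receptor windows, against 7.81% of all windows. STAT matches ran the other way, with 5.88% of ligand and 15.8% of receptor windows, against 8.30% of all windows. The motifs do not overlap in the windows printed here, and these counts describe letters only.

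The first comparison asked whether fetuses of alcohol-fed mothers differed from those of pair-fed mothers, with the pool cancelling out of the difference. No chemokine, interleukin or receptor passed the test. Limma called 0 of 110 member probes tested at an adjusted p under 0.05, where the background over all 20876 probes tested was 0%. At an unadjusted p under 0.05 there were 6 member probes, against a background of 4.22%. No member probe had alcohol-fed and pair-fed arrays that did not overlap, and over all probes tested 0.115% had none. Every member had a limma adjusted p of at least 0.9996.

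The member probes with the smallest p are described here by their values, none of which passed. Ccl1, a T cell chemokine that acts on Ccr8, had log2 ratios to the pool of -2.23 to 1.22 (median -0.35) on 7 alcohol-fed arrays, against -6.08 to -1.27 (median -2.32) on 6 pair-fed arrays. Most alcohol-fed arrays lay above most pair-fed arrays, but the ranges overlapped. The log2 difference (alcohol-fed minus pair-fed) was 2.21 ± 0.76 (SE), and 1.57 without pair-fed array 5. Il1r2, the decoy receptor of interleukin 1, had ratios of -1.28 to 0.20 (median -0.29) in the alcohol-fed group, against -3.44 to 0.07 (median -1.60) in the pair-fed group, a log2 difference of 1.26 ± 0.49. Cxcl1, a neutrophil attractant, had a log2 difference of 0.94 ± 0.46, with ratios of -1.19 to 0.49 in the alcohol-fed and -2.40 to 0.49 in the pair-fed group. Ccl2, the monocyte attractant, stood at 0.75 ± 0.40 and Il4i1, a secreted amino acid oxidase induced by interleukin 4, at 1.00 ± 0.46. These were the positive differences among the 10 smallest p.

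The negative differences belonged to T cell cytokines, a receptor and further chemokines. Il2, the T cell growth factor, had ratios of -2.91 to 0.64 (median -0.49) on 7 alcohol-fed arrays, against -0.63 to 1.77 (median 0.53) on 5 pair-fed arrays, a log2 difference of -1.34 ± 0.59. Of these, 1 alcohol-fed array and 4 pair-fed arrays lay above the pool. Without the 3 arrays that held most placeholder values (exact zeros and the highest value of the table, treated as missing) its difference was -0.69. Il21, a cytokine of helper T cells, differed by -1.55 ± 0.72 on the log2 scale, and a probe of Il2ra, the interleukin 2 receptor alpha chain, by -1.60 ± 0.83. That Il2ra probe had missing values in both groups, and the probes of this gene did not all lean this way. Another stood at -3.27 in alcohol-fed and -2.29 in pair-fed fetuses, but a further one at -1.16 and -1.74, the other way. Cxcl15, known in the mouse as lungkine, differed by -1.58 ± 0.74, and by -2.19 without alcohol-fed array 6. Ccl24, an eosinophil attractant, had ratios of -3.23 to -0.79 (median -1.75) on 6 alcohol-fed arrays, against -2.31 to 7.09 (median 0.01) on 7 pair-fed arrays. The highest value, on pair-fed array 6, set much of its log2 difference of -2.25 ± 1.12, which was -1.14 without that array.

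**Figure D1:**
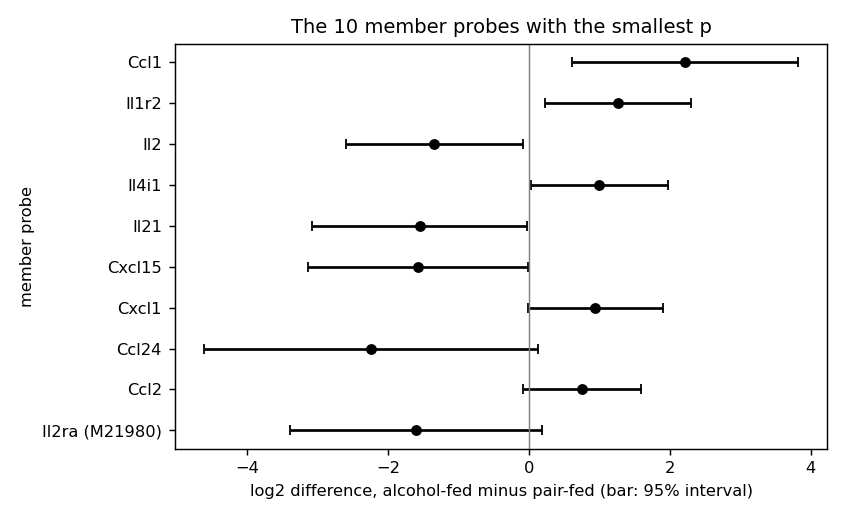
Log2 difference (alcohol-fed minus pair-fed, x axis) of the 10 member probes with the smallest p, 1 row each. Points are limma estimates and bars 95% intervals, and the differences run from -2.25 for Ccl24 to 2.21 for Ccl1, none of them past the adjusted threshold.

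The precision set what could be seen. The median 95% half-width of a member's log2 difference was 1.09. A difference as large as 2-fold lay outside the interval of 11 of 110 member probes, and one of 4-fold outside that of 81. Simulated data with these spreads, in which 200 of 20876 probes were changed, gave calls for 29.5% of 4-fold differences between the diets. Calls were given for 77.5% of 8-fold differences, but for 0% of those of 2-fold. The share called depends on how many probes change, so these rates hold for that setting only.

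The remaining comparisons asked how each diet group stood against the freely fed pool. Log2 ratios are taken as sample over pool, a likely direction, because the sample is the first channel, but not a stated one, and if it is the other way every sign here turns. The pool counts as 1 control whose own spread is left out. No array had its dyes reversed, so a dye effect and a difference from the pool cannot be told apart. Both groups were set against the same pool, so their values stand side by side and do not support each other.

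Members lay more often below the pool than above it. In the alcohol-fed group 7 member probes were called higher and 28 lower of 110 tested, where the background over all probes was 8.02% higher and 15.5% lower. In the pair-fed group 7 were called higher and 29 lower, against a background of 7.86% and 13.5%. The median log2 ratio of member probes was -0.49 in alcohol-fed and -0.46 in pair-fed fetuses, beside medians of 0.01 and -0.03 over all probes tested in the same order of groups. The higher calls of the alcohol-fed group were 3 without its array 4 and 4 without its array 1 or 5, and those of the pair-fed group 3 without its array 4 and 4 without its array 1, 5 or 7.

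Among CC chemokines (21 probes tested) 1 was higher and 5 were lower in alcohol-fed fetuses, and 1 was higher and 6 were lower in pair-fed fetuses. These are 4.76% higher and 23.8% lower in the alcohol-fed and 4.76% and 28.6% in the pair-fed group, beside 8.02% and 15.5%, and 7.86% and 13.5%, of all probes. Ccl5, which attracts T cells and monocytes, was the lowest member. Its log2 ratio ran from -7.03 to -4.29 (median -5.44) on the alcohol-fed arrays and from -7.29 to -5.56 (median -6.46) on the pair-fed arrays, so that every array lay far below the pool and the groups overlapped. The mean was -5.68 ± 0.32 in alcohol-fed fetuses (limma adjusted p = 7.23e-10), 51.4-fold below the pool, and -6.34 ± 0.32 in pair-fed fetuses (limma adjusted p = 1.73e-10), 81.2-fold below it. Ccl3 and Ccl4, inflammatory chemokines encoded near Ccl5, stood at -1.45 ± 0.48 and 0.38 ± 0.38 in alcohol-fed and at -0.20 ± 0.57 and 0.30 ± 0.38 in pair-fed fetuses, and of these 4 values the first alone passed. The alcohol-fed Ccl3 call ended without any of alcohol-fed arrays 1, 2, 3, 4, 5 and 7 (limma adjusted p up to 0.1), and the pair-fed Ccl3 mean on 5 arrays was -1.01 without array 6. These 3 neighbours thus did not share a ratio to the pool.

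Ccl20, which draws cells carrying Ccr6 to epithelia, ran from -4.39 to -2.26 (median -2.69) on the alcohol-fed arrays and from -4.66 to 0.04 (median -1.87) on the pair-fed arrays. All alcohol-fed arrays and 6 of 7 pair-fed arrays lay below the pool. Its mean was -2.94 ± 0.40 in alcohol-fed fetuses (limma adjusted p = 4.97e-05) and -1.99 ± 0.40 in pair-fed fetuses (0.00225). Its receptor Ccr6 stood at 0.06 ± 0.38 and -0.78 ± 0.38 in the same order and did not pass in either group. Ccl28, a chemokine of mucosal epithelia that acts on Ccr10, was lower in both groups, at -2.13 ± 0.44 in alcohol-fed fetuses and -1.84 ± 0.53 on 5 pair-fed arrays, where the call ended without array 1 or 5 (limma adjusted p up to 0.0845). Ccr10 itself stood at 0.44 ± 0.29 in alcohol-fed and 0.58 ± 0.29 in pair-fed fetuses, above 0 but not called.

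Ccl1 passed in pair-fed fetuses alone, at -2.90 ± 0.56 on 6 arrays (limma adjusted p = 0.00171), or -2.26 without array 5, beside -0.69 ± 0.52 in alcohol-fed fetuses. The difference between the diets did not pass, as given above. Ccl22, which acts on Ccr4 of regulatory and helper T cells, was the only CC chemokine called higher, at 0.93 ± 0.26 in alcohol-fed fetuses (7 of 7 arrays above the pool) and 0.87 ± 0.28 in pair-fed fetuses (6 of 6). Ccl17, the other ligand of Ccr4, stood at -0.72 ± 0.61 in alcohol-fed fetuses and was lower in pair-fed fetuses at -1.75 ± 0.61, on arrays that spread from -5.53 to 2.77. That mean was -1.13 without pair-fed array 7 and -2.51 without array 6, and the call ended without any single array other than alcohol-fed array 6 and pair-fed array 6 (limma adjusted p up to 0.155). Ccr4 was lower in both groups, at -1.04 ± 0.34 in alcohol-fed and -1.30 ± 0.34 in pair-fed fetuses, and the alcohol-fed call ended without any of alcohol-fed arrays 1, 2, 3, 4, 5 and 7 (limma adjusted p up to 0.0884). The Ccl22 call ended without alcohol-fed array 4 (limma adjusted p = 0.0538), and in the pair-fed group without any of arrays 1, 2, 4, 5 and 7 (up to 0.101).

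The monocyte-attracting ligands of Ccr2 did not differ from the pool by the test. Ccl2, Ccl7 and Ccl12 stood at 0.44 ± 0.28, 0.61 ± 0.26 and 0.17 ± 0.24 in alcohol-fed fetuses and at -0.31 ± 0.28, 0.29 ± 0.26 and -0.07 ± 0.24 in pair-fed fetuses. Ccr2 stood at -0.14 ± 0.29 in alcohol-fed and -0.79 ± 0.31 in pair-fed fetuses, also not called. Ccl8, encoded among them, was lower, at -1.92 ± 0.40 on 6 alcohol-fed arrays and -2.0 ± 0.48 on 4 pair-fed arrays. Ccl19 and Ccl21a, lymphoid chemokines that act on Ccr7, were not called, and the Ccl21 genes are near-identical copies whose probes may share signal.

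Of 11 CXC chemokine probes, 1 was higher and 3 were lower in alcohol-fed fetuses, and 2 were higher and 3 lower in pair-fed fetuses. These are 9.09% higher and 27.3% lower in the alcohol-fed group, against a background of 8.02% and 15.5%, and 18.2% and 27.3% in the pair-fed group, against 7.86% and 13.5%. Cxcl16, which occurs as a membrane-bound and as a shed chemokine, ran from -3.82 to -2.03 (median -2.91) on the alcohol-fed arrays and from -3.14 to -1.75 (median -2.62) on the pair-fed arrays. All arrays lay below the pool and the groups overlapped over most of their range. The mean was -2.87 ± 0.28 in alcohol-fed fetuses (limma adjusted p = 7.9e-07) and -2.59 ± 0.28 in pair-fed fetuses (3.13e-06). Cxcr6, its receptor, was lower in alcohol-fed fetuses at -1.15 ± 0.40 and stood at -0.54 ± 0.40 in pair-fed fetuses, and its difference between the diets (-0.61 ± 0.57) did not pass. The Cxcr6 call ended without any of alcohol-fed arrays 2 to 7 or pair-fed arrays 1 and 2 (limma adjusted p up to 0.125).

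The neutrophil attractants, which act on Cxcr2, are encoded side by side. Cxcl2, whose promoter is printed above, ran from -6.73 to -0.38 (median -1.47) on the alcohol-fed arrays and from -2.62 to -1.10 (median -1.89) on the pair-fed arrays, all below the pool. Its mean was -2.22 ± 0.52 in alcohol-fed fetuses, or -1.47 without array 6, and -1.87 ± 0.52 in pair-fed fetuses. Cxcl1 stood at -0.50 ± 0.32 in alcohol-fed fetuses and was lower in pair-fed fetuses at -1.45 ± 0.32. Cxcl15 was lower in alcohol-fed fetuses at -2.57 ± 0.52 on 6 arrays, or -3.19 without array 6, and stood at -0.99 ± 0.52 in pair-fed fetuses. Cxcl5, the fourth gene of this neighbourhood, stood at 0.02 ± 0.29 and 0.47 ± 0.29 in the same order, not called. Cxcr2 was not called either, at 0.54 ± 0.28 in alcohol-fed and 0.28 ± 0.28 in pair-fed fetuses.

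Cxcl14, a chemokine of epithelia, was the CXC chemokine farthest above the pool. It ran from -0.10 to 1.99 (median 1.66) on the alcohol-fed arrays, 6 of 7 of them above the pool, and from 0.36 to 3.43 (median 1.45) on 6 pair-fed arrays, all above it. The mean was 1.38 ± 0.34 in alcohol-fed fetuses (limma adjusted p = 0.00853) and 1.61 ± 0.37 in pair-fed fetuses (0.0055), where the call ended without the 3 arrays with most placeholder values (0.0516). The interferon-induced ligands of Cxcr3, which are neighbours in the genome, all had positive means. Cxcl9, Cxcl10 and Cxcl11 stood at 0.41 ± 0.35, 0.66 ± 0.27 and 0.35 ± 0.27 in alcohol-fed fetuses and at 0.39 ± 0.35, 0.41 ± 0.27 and 0.84 ± 0.27 in pair-fed fetuses. Only Cxcl11 in pair-fed fetuses passed, and this call ended without any of pair-fed arrays 1, 3, 4, 6 and 7 (limma adjusted p up to 0.116). Cxcr3 stood at -0.07 ± 0.29 in alcohol-fed and -0.14 ± 0.29 in pair-fed fetuses. Cxcl12 and its receptor Cxcr4, the pair known for homing of haematopoietic cells, were not called: Cxcl12 stood at -0.51 ± 0.49 and -0.64 ± 0.49, and Cxcr4 at 0.42 ± 0.36 and -0.09 ± 0.36, alcohol-fed first in each case.

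Among interleukins (25 probes tested) 1 was higher and 4 were lower in alcohol-fed fetuses, and 1 was higher and 3 were lower in pair-fed fetuses. Their shares, 4.0% higher and 16.0% lower in the alcohol-fed and 4.0% and 12.0% in the pair-fed group, were close to or under those of all probes (8.02% and 15.5%, and 7.86% and 13.5%). Il1b, the inflammatory product of activated macrophages, ran from -2.99 to 0.07 (median -1.53) on the alcohol-fed arrays and from -3.43 to -1.12 (median -1.80) on the pair-fed arrays. It lay below the pool on 6 of 7 alcohol-fed and 7 of 7 pair-fed arrays. Its mean was -1.71 ± 0.38 in alcohol-fed and -2.05 ± 0.38 in pair-fed fetuses. Il1a stood at -1.24 ± 0.45 in alcohol-fed and -1.10 ± 0.48 in pair-fed fetuses, short of the threshold, and both values passed without alcohol-fed array 6 (-1.79 and -1.10, limma adjusted p = 0.00171 and 0.0264). Il1rn, the receptor antagonist of the same family, stood at -0.25 ± 0.47 and 0.31 ± 0.47 in the same order. Il1f5, the antagonist of the interleukin 36 receptor, was lower in both groups, at -2.02 ± 0.47 in alcohol-fed and -3.01 ± 0.51 in pair-fed fetuses. Il1f6, an agonist of that receptor, was also lower in both, at -1.24 ± 0.27 in alcohol-fed and -1.65 ± 0.27 in pair-fed fetuses.

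Il12b, the subunit shared by interleukins 12 and 23, ran from -3.17 to 0.26 (median -1.52) on the alcohol-fed arrays and from -6.29 to 0.13 (median -2.70) on 6 pair-fed arrays. The pair-fed arrays spread widely, and the mean passed in pair-fed fetuses (-2.87 ± 0.61, or -2.18 without array 1 and -3.47 without array 7) and stood at -1.41 ± 0.57 in alcohol-fed fetuses. Il12a and Il23a, the partner subunits, were not called in either group. Without pair-fed array 1 or 7 the alcohol-fed Il12b value passed (limma adjusted p = 0.0384 and 0.0464), and without pair-fed array 4 alcohol-fed Il12a passed at -1.24 (0.00714). Il21 was lower in alcohol-fed fetuses at -2.13 ± 0.48 on 6 arrays and stood at -0.57 ± 0.53 on 5 pair-fed arrays. Il20, an epidermal cytokine of the interleukin 10 family, was the interleukin called higher, at 0.90 ± 0.30 in alcohol-fed and 0.91 ± 0.30 in pair-fed fetuses, with 6 of 7 arrays above the pool in each group. The Il20 call ended without any of alcohol-fed arrays 1, 2, 4, 6 and 7 (limma adjusted p up to 0.105) and without any of pair-fed arrays 1, 2, 4 and 5 (up to 0.101). The inflammatory Il6 and the regulatory Il10 stood at -1.32 ± 0.50 and -0.97 ± 0.48 in alcohol-fed and at -0.60 ± 0.59 and -0.78 ± 0.48 in pair-fed fetuses, not called. Alcohol-fed Il6 was -0.69 without array 6, and passed at -1.69 without array 5 (limma adjusted p = 0.0298). Il5, Il16, Il24 and Ccl21c had too few values to be tested.

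Receptors held the highest member. Il12rb1, the chain that binds the subunit encoded by Il12b, ran from 3.85 to 5.47 (median 4.57) on the alcohol-fed arrays and from 3.53 to 6.65 (median 4.78) on the pair-fed arrays. All 14 arrays lay far above the pool and the groups overlapped. The mean was 4.65 ± 0.33 in alcohol-fed fetuses (limma adjusted p = 1.13e-08), 25.1-fold above the pool, and 4.85 ± 0.33 in pair-fed fetuses (5.8e-09), 28.9-fold above it. Il12rb2, the partner chain of the interleukin 12 receptor, stood on the other side of the pool, at -0.63 ± 0.36 in alcohol-fed fetuses, not called, and lower at -1.18 ± 0.36 in pair-fed fetuses, a call that ended without any of pair-fed arrays 2, 4, 6 and 7 (limma adjusted p up to 0.0844).

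**Figure D2:**
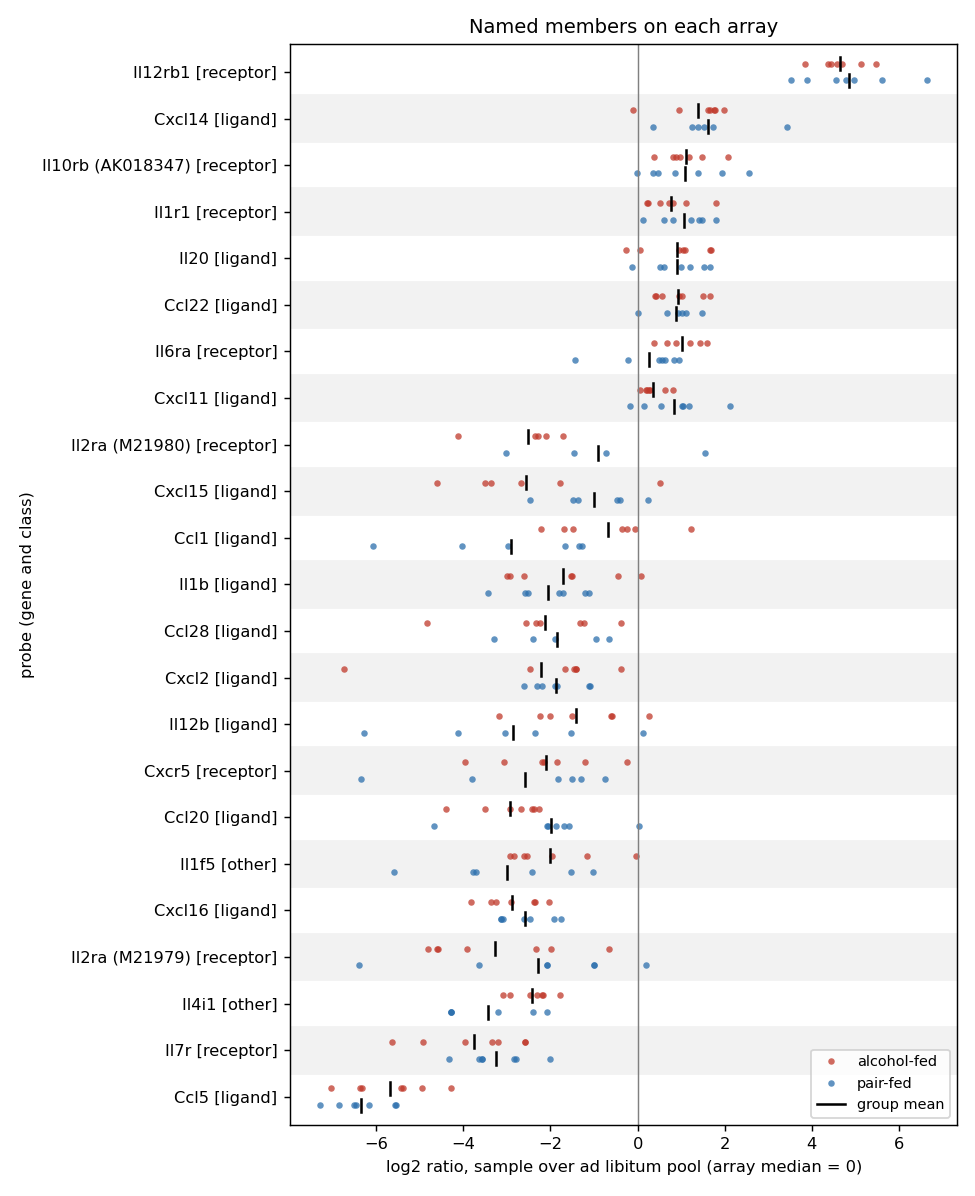
Log2 ratio of sample over pool (x axis) on every array for the probes farthest from the pool, 1 row each, with alcohol-fed points above pair-fed points and black bars at the group means. Ccl5 lies below -4 on every array and Il12rb1 above 3.5 on every array, and the points of both diets overlap in every row.

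Il7r, the receptor that lymphoid precursors need for growth, was the lowest receptor. It ran from -5.64 to -2.58 (median -3.33) on the alcohol-fed arrays and from -4.33 to -2.02 (median -3.57) on the pair-fed arrays, all below the pool. The mean was -3.75 ± 0.37 in alcohol-fed fetuses (limma adjusted p = 8.53e-07) and -3.25 ± 0.37 in pair-fed fetuses (5.23e-06). Its ligand Il7, made by stromal cells, stood at 0.60 ± 0.41 in alcohol-fed and 0.75 ± 0.41 in pair-fed fetuses, above 0 but not called. Il4i1, which is neither ligand nor receptor, was lower on every array with a value, at -2.42 ± 0.31 in alcohol-fed and -3.42 ± 0.34 in pair-fed fetuses.

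Cxcr5, which guides B cells to follicles, ran from -3.97 to -0.23 (median -2.15) on the alcohol-fed arrays and from -6.34 to -0.75 (median -1.67) on 6 pair-fed arrays, all below the pool. Its mean was -2.09 ± 0.55 in alcohol-fed and -2.59 ± 0.60 in pair-fed fetuses, or -1.84 in pair-fed fetuses without array 5. Cxcl13, its ligand, stood at -0.65 ± 0.50 in alcohol-fed and -0.93 ± 0.50 in pair-fed fetuses, not called. Of 10 CC receptor probes, Ccr4 and Ccr8 were lower in alcohol-fed fetuses and Ccr4 and Ccr1l1 in pair-fed fetuses, and 0 were higher in either group. This is 20.0% called in each group, under the background of 23.5% in the alcohol-fed and 21.3% in the pair-fed group. The Ccr8 call ended without any of alcohol-fed arrays 2, 3, 4, 6 and 7 (limma adjusted p up to 0.0922), and alcohol-fed Ccr1l1 (-1.01 ± 0.36) passed without alcohol-fed array 7 or pair-fed array 2 or 6. Cxcr5 and Cxcr6 were the CXC receptors called in alcohol-fed fetuses, and Cxcr5 that in pair-fed fetuses, of 5 tested.

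Il1r1, the signalling receptor of interleukin 1, was higher, at 0.77 ± 0.27 in alcohol-fed and 1.06 ± 0.27 in pair-fed fetuses, with 7 of 7 arrays above the pool in each group. The alcohol-fed call was at the edge (limma adjusted p = 0.0459) and ended without any of alcohol-fed arrays 1 to 6 or pair-fed arrays 1, 2, 4 and 5 (up to 0.126). Il1r2 and the accessory chain Il1rap were lower in pair-fed fetuses, at -1.64 ± 0.35 and -1.71 ± 0.50, and stood at -0.38 ± 0.35 and -0.47 ± 0.50 in alcohol-fed fetuses. The Il1rap call ended without pair-fed array 3, 4 or 6 (limma adjusted p up to 0.0778). Il1rl2, the interleukin 36 receptor, was lower in both, at -1.11 ± 0.36 in alcohol-fed and -1.36 ± 0.36 in pair-fed fetuses, calls that ended without any of alcohol-fed arrays 1, 2, 3, 6 and 7 (limma adjusted p up to 0.108) and without pair-fed array 1 or 5 (up to 0.0533). The neighbours Il1r1, Il1r2 and Il1rl2 on chromosome 1 thus had means on both sides of 0 in both groups. Il6ra, which binds interleukin 6, was higher in alcohol-fed fetuses at 1.02 ± 0.32, a call that ended without any of alcohol-fed arrays 1, 4, 5 and 7 (limma adjusted p up to 0.0855), and stood at 0.26 ± 0.30 in pair-fed fetuses.

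Further receptor chains were lower. Il17rc, of the interleukin 17 receptor family, stood at -1.14 ± 0.35 in alcohol-fed and -1.37 ± 0.35 in pair-fed fetuses, and Il15ra, the high-affinity chain for interleukin 15, at -1.03 ± 0.36 and -1.12 ± 0.36. Il27ra, the interleukin 27 receptor, was lower in alcohol-fed fetuses at -1.60 ± 0.53 and stood at -1.05 ± 0.58 in pair-fed fetuses. These calls were near the threshold: those in alcohol-fed fetuses ended without any of alcohol-fed arrays 1, 4, 5 and 6 for Il17rc (limma adjusted p up to 0.0771), without any of alcohol-fed arrays 2, 3, 5 and 6 for Il27ra (up to 0.124), and without any of alcohol-fed arrays 1, 3, 4, 5, 6 and 7 or pair-fed arrays 1, 2 and 4 for Il15ra (up to 0.147). The pair-fed Il15ra call ended without pair-fed array 1, 2, 3 or 5 (limma adjusted p up to 0.112). Interleukin receptors as a family had 4 higher and 9 lower of 32 probes in alcohol-fed (12.5% and 28.1%, against 8.02% and 15.5% of all probes) and 3 higher and 11 lower in pair-fed fetuses (9.38% and 34.4%, against 7.86% and 13.5%).

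Probes of a single gene did not always stand together. Il10rb, a chain of the interleukin 10 receptor, had a probe called higher, at 1.11 ± 0.31 in alcohol-fed and 1.08 ± 0.31 in pair-fed fetuses, while its other probe stood at -0.63 ± 0.27 and -0.70 ± 0.27 in the same order. The higher call ended without alcohol-fed array 5 (limma adjusted p = 0.0534) and without pair-fed array 4, 5 or 7 (up to 0.0745). Il10ra, the ligand-binding chain, was lower in both groups, at -1.26 ± 0.42 in alcohol-fed and -1.64 ± 0.42 in pair-fed fetuses, the alcohol-fed call ending without array 1, 2, 4 or 7 (limma adjusted p up to 0.148). For Il6st, the shared signal transducer of the interleukin 6 family, the probes stood at -1.33 ± 0.29 and -0.04 ± 0.28 in alcohol-fed and at -1.38 ± 0.32 and -0.02 ± 0.28 in pair-fed fetuses. For Il15, a growth factor of natural killer cells, they stood at -1.34 ± 0.34 and -0.15 ± 0.35 in alcohol-fed and at -1.51 ± 0.34 and 0.39 ± 0.35 in pair-fed fetuses. The probe called was thus a single probe of a pair in each of these genes.

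All 4 probes of Il2ra had negative means in both groups, but they were not called alike. The probe farthest below the pool ran from -4.81 to -0.66 (median -3.92) on the alcohol-fed arrays and from -6.40 to 0.19 (median -2.08) on the pair-fed arrays, with means of -3.27 ± 0.63 and -2.29 ± 0.63. Its pair-fed value was -1.60 without array 4, which ended the call (limma adjusted p = 0.0516). The other 3 probes had means from -2.52 to -0.79 in alcohol-fed and from -1.74 to -0.91 in pair-fed fetuses, of which 1 passed in each group, the pair-fed one not without pair-fed array 5 (limma adjusted p = 0.0508). The one called in alcohol-fed fetuses had values on 5 alcohol-fed and 4 pair-fed arrays.

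**Figure D3:**
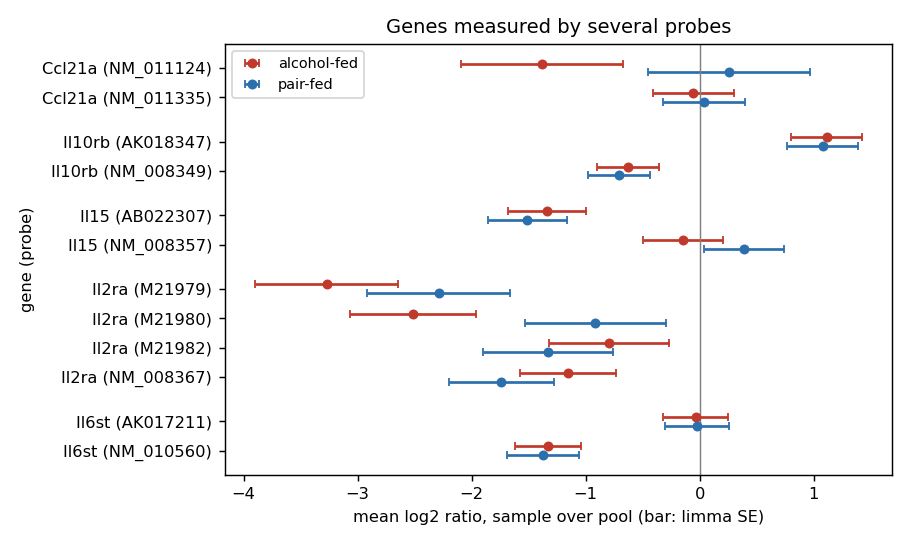
Mean log2 ratio of sample over pool (x axis) for each tested probe of the member genes with several probes, with limma SE as bars and alcohol-fed above pair-fed. The Il10rb probes lie on opposite sides of 0 in both groups, whereas all 4 Il2ra probes lie below it.

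Set side by side, the share of probes called was larger for receptors than for ligands, a difference that was not tested. In alcohol-fed fetuses 15 of 57 ligand probes (26.3%) and 17 of 47 receptor probes (36.2%) were called in either direction, against a background of 23.5%. In pair-fed fetuses the counts were 16 ligand probes (28.1%) and 17 receptor probes (36.2%), against a background of 21.3%, and without pair-fed array 1 the ligand count was 10. Leaving out any single alcohol-fed array lowered the alcohol-fed receptor count to between 9 and 11, where the ligand count was between 12 and 16. The share of all probes called in those smaller fits is not given here. Whether the fall was particular to receptors was thus not tested. Without alcohol-fed array 3, 4, 5 or 6 the order in that group turned, with 19.6% to 24.4% of receptor probes and 21.4% to 28.1% of ligand probes called. Calls were mostly downward in both classes, as they were over all probes. In alcohol-fed fetuses 12 ligand (21.1%) and 13 receptor probes (27.7%) were lower, against 15.5% of all probes. In pair-fed fetuses 12 (21.1%) and 14 (29.8%) were lower, against 13.5%.

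The order of the class medians differed between the diets. The median log2 ratio was -0.51 for ligands and -0.37 for receptors in alcohol-fed fetuses, and -0.20 for ligands and -0.68 for receptors in pair-fed fetuses. The median of receptor differences between the diets (alcohol-fed minus pair-fed) was 0.23, that of ligand differences -0.02 and that of all probes tested 0.01. These orders rested on few values: with only probes measured on all arrays the alcohol-fed ligand median was -0.14, the pair-fed ligand median was -0.43 without pair-fed array 6, and the pair-fed receptor median was -0.41 without pair-fed array 4 or 5. The ligand median minus the receptor median ran from -0.46 to 0.21 across alcohol-fed arrays and from -0.14 to 0.80 across pair-fed arrays, and the groups overlapped. Of 10 CC receptor probes 8 had a positive difference between the diets, with a median of 0.71, but none of them passed. Over all probes tested 10665 of 20876 differences were positive. Among CXC receptors 4 of 5 were positive (median 0.26), and among interleukin receptors 19 of 32 (median 0.06). The largest CC receptor difference, Ccr3 at 2.60 ± 1.44, came from 4 arrays in each group. No test was made of a class as a whole.

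**Figure D4:**
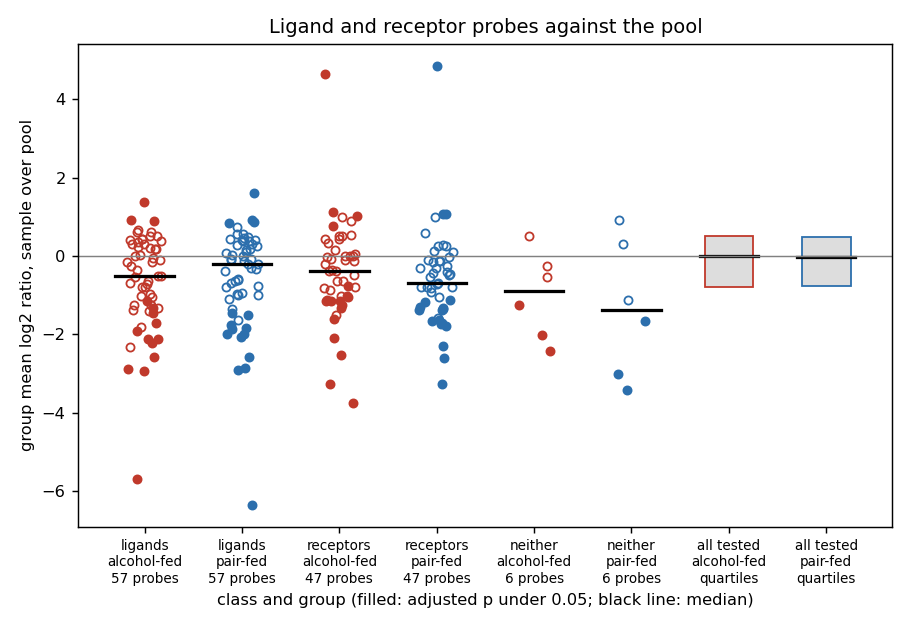
Group mean log2 ratio of sample over pool (y axis) for each tested ligand probe (57), receptor probe (47) and probe of neither class (6), alcohol-fed left of pair-fed, with filled points for an adjusted p under 0.05 and black lines at the medians. The boxes at the right give the quartiles of all probes tested, and the class medians of -0.51 and -0.20 for ligands and -0.37 and -0.68 for receptors lie below the medians of all probes.

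Other genes of these pathways also lay on both sides of the pool. Of 14 atypical receptors and other chemokine family genes, 0 were higher and 3 lower in alcohol-fed fetuses, and 0 were higher and 2 lower in pair-fed fetuses (21.4% and 14.3% lower, beside 15.5% and 13.5% of all probes). Those called were Ccrl2, a chemerin-binding receptor (-3.56 ± 0.70 in alcohol-fed, -0.36 ± 0.70 in pair-fed, not called in pair-fed), the chemerin receptor Cmklr1 (-2.48 ± 0.46 and -3.02 ± 0.49) and the platelet chemokine Pf4 (-1.94 ± 0.61 and -2.15 ± 0.61). Alcohol-fed Ccrl2 was -2.64 without array 5 and -4.28 without array 7. The Pf4 calls ended without alcohol-fed array 2, 3, 5 or 7 (limma adjusted p up to 0.0948) and without pair-fed array 1 (-1.54, 0.0724) or 7 (0.0689). Among 22 probes of further cytokines and receptors, 1 was higher and 4 were lower in alcohol-fed fetuses, and 3 were higher and 5 lower in pair-fed fetuses. The shares were 4.55% higher and 18.2% lower in the alcohol-fed group, against 8.02% and 15.5% of all probes, and 13.6% and 22.7% in the pair-fed group, against 7.86% and 13.5%. Ifng, the macrophage-activating interferon, was the lowest of them in both groups, at -3.08 ± 0.36 in alcohol-fed and -2.94 ± 0.42 in pair-fed fetuses. Lif, a cytokine that signals through Il6st, was higher in both, at 0.96 ± 0.32 and 0.91 ± 0.32, but the alcohol-fed call ended without any alcohol-fed array other than 5 (limma adjusted p up to 0.117), and the pair-fed call without any of alcohol-fed arrays 1, 2, 3 and 7 or pair-fed arrays 2 to 6 (up to 0.13).

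Of 44 probes of signalling genes below the receptors, 2 were higher and 11 lower in alcohol-fed fetuses, and 2 were higher and 10 lower in pair-fed fetuses. Lower calls made up 25% and 22.7% of this list, against 15.5% and 13.5% of all probes, and higher calls 4.55% in each group, against 8.02% and 7.86%. Socs4 and Socs5, of a family of feedback inhibitors of cytokine signalling, stood at -5.65 ± 0.50 and -5.29 ± 0.56 in alcohol-fed and at -5.99 ± 0.50 and -4.97 ± 0.56 in pair-fed fetuses. The family did not move as a whole. Socs1 was lower (-2.70 in alcohol-fed, -1.70 in pair-fed), the pair-fed call ending without array 1, 3, 5 or 7 (limma adjusted p up to 0.112). Socs2, Socs3 and Socs7 were not called, at 0.02, 0.75 and -0.29 in alcohol-fed and -0.26, 0.11 and 0.65 in pair-fed fetuses. Stat5a, a factor activated by interleukins 2 and 7, stood at -4.86 ± 0.38 and -4.06 ± 0.38, and Myd88 at -2.89 ± 0.62 and -2.99 ± 0.69, alcohol-fed first. Alcohol-fed Myd88 was -2.29 without array 2, and alcohol-fed Socs5 -4.57 without array 1. Tyk2, a kinase of the interleukin 12 receptor, was higher in alcohol-fed fetuses at 1.12 ± 0.28 and stood at 0.45 ± 0.30 in pair-fed fetuses. The probes of Traf6 lay on opposite sides of the pool, at 0.59 and -1.60 in alcohol-fed and 0.81 and -0.87 in pair-fed fetuses. The second was called in alcohol-fed and the first in pair-fed fetuses, there near the threshold (limma adjusted p = 0.044). In none of these lists did a gene pass between the diets.

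Markers of the cells that make or answer these signals are given beside the share of all probes called lower, 15.5% in the alcohol-fed and 13.5% in the pair-fed group, and higher, 8.02% and 7.86%. Of 12 macrophage and monocyte probes 0 were higher and 4 lower in each group (Cd163, Itgam, Cd68 and Adgre1), with array medians from -1.11 to -0.10 in alcohol-fed and from -1.89 to -0.22 in pair-fed fetuses. In each group that was 33.3% lower, though the alcohol-fed calls ended without array 1, 3, 4 or 7 for Adgre1 (limma adjusted p up to 0.111) and 3, 4 or 7 for Cd68 (up to 0.0758). Of 13 T and natural killer cell probes 0 were higher and 3 lower in each group (23.1%), among them Zap70 at -3.00 ± 0.31 in alcohol-fed and -2.73 ± 0.31 in pair-fed fetuses. Gzmb was also lower in both. Cd4 was called in alcohol-fed fetuses alone (-1.96, beside -0.02 in pair-fed), and Prf1 in pair-fed fetuses alone (-1.79, beside -1.10 in alcohol-fed). The Prf1 call ended without pair-fed array 1, 4, 5 or 6 (limma adjusted p up to 0.152), and neither gene passed between the diets. The T cell receptor chains Cd3d, Cd3e and Cd3g were not called, at -1.14, 0.06 and -0.01 in alcohol-fed and -0.48, 0.19 and -0.40 in pair-fed fetuses. Alcohol-fed Cd3d was at the edge (limma adjusted p = 0.0503). It passed without alcohol-fed array 4 or pair-fed array 1, 2, 4 or 6 (0.0377 to 0.0483). Of 8 B cell probes 1 was lower in each group (12.5%, under the share of all probes), and of 5 pan-leukocyte probes 1 was lower in alcohol-fed and 2 were lower in pair-fed fetuses. The alcohol-fed calls ended without alcohol-fed array 1, 4 or 7 for Blk and 4 or 6 for Itgb2. The pair-fed calls ended without pair-fed array 4, 5 or 6 for Igll1 and 2 or 4 for Ptprc. That of Itgb2 ended without any of alcohol-fed arrays 1, 2, 3 and 7 or pair-fed arrays 1 to 5 (limma adjusted p up to 0.133). Granulocyte markers had 2 lower of 5 probes in alcohol-fed and 1 in pair-fed fetuses, and mast cell markers had 1 higher and 2 lower of 8 in alcohol-fed and 1 higher and 1 lower in pair-fed fetuses. The granulocyte Elane calls ended without alcohol-fed array 3, 5, 6 or 7 (limma adjusted p up to 0.0952) and without pair-fed array 5 or 6 (up to 0.0598). Ngp, the other granulocyte call, had values on 5 alcohol-fed and 4 pair-fed arrays. The mast cell Mcpt8 call ended without alcohol-fed array 5 or 7 (up to 0.0669). Of 4 platelet probes Pf4 was lower in both. Fewer cells of a type and less RNA per cell cannot be told apart in these samples, and the part of cell numbers in the members' values was not tested. Erythroid (3 probes) and neuronal (5) markers had 0 calls in either group, whereas 2 of 4 skeletal muscle probes were lower in both groups. Hepatocyte markers had 1 lower of 7 in alcohol-fed and 2 in pair-fed fetuses, and skin markers 1 lower of 3 and 0.

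Across the series, array medians as deposited ran from -0.30 to 0.57 in the alcohol-fed and from -0.43 to 0.63 in the pair-fed group. Placeholder values were 2.57% to 14.6% of an array and most frequent on pair-fed arrays 6 and 7 and alcohol-fed array 6. Without these 3 arrays 5 member probes were higher and 26 lower in alcohol-fed fetuses, and 3 were higher and 31 lower in pair-fed fetuses. The share of all probes called in that smaller fit is not given here, so these counts have no background beside them. Over all probes, which are no independent replicates, pairs of arrays correlated at r = 0.257 to 0.692, with a median of 0.451 both within and between groups. Depth is not defined for these ratios, and the number of arrays limits the precision.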

How the data were processed

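The authors deposited a table of 21582 probes with a log2 ratio for each of the 14 arrays. Log base and direction (sample over pool) are inferred from the range of the values and the channel order. No source used here names the scanner, the background correction or the normalization. RNA was labelled with a Cy3/Cy5 kit, per the labels' protocols. Values of exactly 0 and at the table's highest value (16.61) recur on every array and were treated as missing, and array medians were then set to 0.

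Tests were run on probes measured on 4 or more arrays in both groups (20876 probes, 110 of the 114 members, 103 genes). Limma 3.58.1 in R 4.3.3 (lmFit, eBayes, all 14 arrays in 1 fit, two-sided, Benjamini-Hochberg adjusted p under 0.05 over all probes) gave the difference between the diets and the mean of each group against 0. Errors are limma standard errors, whose variance is shared by both groups, and fold changes are 2 raised to the log2 ratio. No array pair shared over 0.287% identical values, so no array was a copy of another. Each array was counted as 1 replicate, but whether arrays share a litter or an RNA sample is not known.

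Names come from an old platform annotation. By gene number 113 of 114 members matched RefSeq (GRCm38.p6), with 0 symbols changed. Members, classes and lists were chosen with earlier results of these data known. Named probes are the 10 highest and 10 lowest called per group against the pool and the 10 smallest p between groups, and other members are given for their place in a ligand and receptor pair or a neighbourhood, chosen after their values were seen. Neighbours are member genes with gaps of at most 500 kb in RefSeq. In simulated data for alcohol-fed against the pool, with 200 of 20876 probes changed, 70.5% of 4-fold changes were recovered. In the real data 4913 probes were called in that comparison, so this rate does not carry over to those data. Alternatives are given in the closing section.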

Additional observations from a re-analysis of the deposited data

Results flagged for a closer look

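Of 64 sets of values checked (each named probe in each group, and the class medians of the arrays), 5 had a highest or lowest array far from the others by Dixon's gap test, where chance flags about 1 in 20. Cxcl2 on alcohol-fed array 6 stood at -6.73, next to -2.46. Il2ra, in a probe with values on 5 alcohol-fed arrays, stood at -4.13 on alcohol-fed array 3, next to -2.35. Ccl24 stood at 7.09 on pair-fed array 6, next to 0.85, and Cxcl1 at 0.489 on pair-fed array 2, next to -1.33. The median of all member probes was -0.649 on alcohol-fed array 7, next to -0.433. No member had every array of a diet group above the pool and every array of the other group below it.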

How the results depend on the processing

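Alcohol-fed minus pair-fed gave 0 called member probes under every alternative run, and its 10 named differences kept their sign in all 227 values. Against the pool, 743 of 797 values of named probes kept their call, 54 lost it and 0 changed sign, and 22 of 34 named results kept their call throughout. Restricting the fit to probes with a value on all arrays left 4 higher and 17 lower member probes, 8 ligand probes called and a ligand median of -0.14 in the alcohol-fed group, and 19 lower member probes, 10 ligand probes called and a receptor median of -0.43 in the pair-fed group; here fewer probes were tested. Without centring 11 alcohol-fed receptor probes were called, and without the 3 arrays with most placeholders (added after seeing the data) 11 alcohol-fed receptor probes and 3 higher pair-fed member probes; in both the cause was not tested. Same-numbered arrays of the groups deviated together at r = -0.08 to 0.18, not above 0.1 in every pair, and 2 of 7 arrays correlated best with their own number. With the replicate block the calls of Il1r1, Il20, Il6ra and an Il2ra probe (limma adjusted p = 0.367) in the alcohol-fed group and of Ccl22, Cxcl11 and Il20 in the pair-fed group ended, and there were 4 higher member probes in each group, 10 alcohol-fed receptor probes called and 0 calls between the diets. Leaving out 1 array at a time gave, in the alcohol-fed group, 3 to 7 higher and 21 to 30 lower member probes, 12 to 17 ligand and 9 to 17 receptor probes called, and medians of -0.65 to -0.40 for ligands and -0.53 to -0.28 for receptors. In the pair-fed group it gave 3 to 7 higher and 24 to 32 lower member probes, 10 to 18 ligand and 13 to 17 receptor probes called, and medians of -0.43 to -0.12 for ligands and -0.71 to -0.41 for receptors. For these alternatives the share of all probes called is not given, so their counts of member probes have no background beside them. Signal over background is unknown, so dim spots could not be set apart.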
